A study of Arabidopsis thaliana with 12 samples.

Results

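The ATG8 family of Arabidopsis was followed through the response of whole rosettes to ozone (O3). Its members are set by locus, as the 9 genes named ATG8A to ATG8I. Of these, 8 were analysed, out of 34212 loci in the count table, and AT1G62040 (ATG8C) was not analysed here. Rosettes of the wild accessions Cvi-0 (Cvi) and Shahdara (Sha) were harvested at an age of 3 weeks after 2 h in 350 nL L-1 O3 or in clean air (CA), the control. The age is that of the paper's methods, and its figure legend for these data gives a slightly higher one. Clean air was ambient air that had not been filtered and held a low background of O3. The 4 groups were Cvi in O3, Cvi in CA, Sha in O3 and Sha in CA, each with 3 replicate libraries of 4 pooled rosettes. No group was a mutant or transgenic line. The paper treats both accessions as O3-sensitive. It describes Cvi as having high stomatal conductance and raised O3 uptake through impaired MITOGEN-ACTIVATED PROTEIN KINASE12. For Sha it reports, from a separate and longer exposure, a lower total O3 dose than in the tolerant accession Col-0. Equal O3 in the air therefore need not be an equal dose in the leaf, and the part of uptake in the results was not tested. The accessions differ at many loci, so a difference between them cannot be assigned to any 1 locus.

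Autophagy is the route by which plant cells enclose cytoplasm, organelles or marked proteins in a double membrane, the autophagosome, and deliver them to the vacuole for breakdown. ATG8 is a small ubiquitin-like protein that is attached to the lipid phosphatidylethanolamine in that membrane, where it also binds the receptors that bring cargo. For this to happen the protease ATG4 first trims most ATG8 proteins back to a conserved glycine near the carboxyl end, and the E1-like enzyme ATG7 and the E2-like enzyme ATG3 then join that glycine to the lipid. In leaves, autophagy is known for recycling nutrients in senescence and starvation and for clearing damaged chloroplast and cytosolic material under oxidative stress.

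The ends of the coding sequences are shown because they set ATG8H, whose transcripts responded most, and ATG8I apart from the other members. They come from RefSeq (TAIR10.1) and are written 5′ to 3′, from 8 codons before the conserved glycine codon, which is in capitals, to the stop codon.
ATG8A chr4:11656765-11656809, plus strand: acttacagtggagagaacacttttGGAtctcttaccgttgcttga
ATG8B chr4:2328663-2328707, minus strand: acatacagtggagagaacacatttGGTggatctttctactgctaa
ATG8D chr2:2083211-2083249, minus strand: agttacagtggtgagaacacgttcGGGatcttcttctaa
ATG8E chr2:18625485-18625526, plus strand: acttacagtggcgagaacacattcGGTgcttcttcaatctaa
ATG8F chr4:9306882-9306923, minus strand: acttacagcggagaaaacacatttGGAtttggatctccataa
ATG8G chr3:22416930-22416971, plus strand: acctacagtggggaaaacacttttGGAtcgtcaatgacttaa
ATG8H chr3:1955219-1955248, minus strand: tgctacagcaccgagaaaactttcGGCtaa
ATG8I chr3:5274075-5274104, minus strand: tgctatagcagtgagaaaacctttGGTtga
In ATG8H (AT3G06420) and ATG8I (AT3G15580) the glycine codon is followed directly by the stop codon, so 0 residues lie after it. The other 6 members encode between 3 and 5 further residues, with 5 in ATG8A (AT4G21980) and ATG8B (AT4G04620), 4 in ATG8E (AT2G45170), ATG8F (AT4G16520) and ATG8G (AT3G60640), and 3 in ATG8D (AT2G05630). ATG8H and ATG8I were also closest to each other, with 67.8% identical residues over 115 aligned. ATG8H shared between 45% and 52.9% with the other members. Among those, ATG8A and ATG8B were the most alike (87.7%), followed by ATG8A and ATG8D (80.8%) and by ATG8E and ATG8G (78.5%). Near copies, sought among all annotated transcripts as matches of 90% identity or more that covered 50% or more of a member, were not found. ATG8A and ATG8B, the closest of the analysed members, shared 85.5% over 373 bases.

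All 8 members are protein-coding nuclear genes. ATG8A (chromosome 4, 11655562 to 11657034), ATG8B (chromosome 4, 2328442 to 2330590) and ATG8F (chromosome 4, 9306339 to 9308538) lie on 1 chromosome. ATG8D (2082894 to 2084905) and ATG8E (18624264 to 18625791) are on chromosome 2, and ATG8G (22415751 to 22417548), ATG8H (1954990 to 1956397) and ATG8I (5273526 to 5275095) on chromosome 3. ATG8I overlaps the opposite-strand locus AT3G15578 by 183 bases, and ATG8A overlaps AT4G21990, also on the opposite strand, by 27 bases. The study names a stranded library kit, but the sources used here do not say if reads were assigned by strand. Whether reads in these stretches were told apart is therefore not known.

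Total counts ranged from 21699862 to 33571953 per library in Cvi and from 10794686 to 27895667 in Sha. The lowest count of any member in a library was 39 (ATG8H, Sha in CA replicate 1), so every member was read above 3 counts, taken as the limit of detection, in every library. Levels are given in CPM, counts scaled to library size with trimmed mean of M-values factors. The label of whole rosettes was checked against leaf, root and flower markers. The summed level of 4 mesophyll genes, 2 for the small subunit of Rubisco and 2 for light-harvesting proteins, was 17777 to 22399 CPM in Cvi in O3 against 41668 to 43802 CPM in Cvi in CA, and 6708 to 17385 CPM in Sha in O3 against 26432 to 39857 CPM in Sha in CA. The sums of 4 guard cell and 3 epidermal markers were lower in O3 than in CA in every Cvi library, those of the epidermis also in every Sha library. The sum of 2 companion cell markers overlapped between O3 and CA, at 215 to 269 CPM in Cvi in O3 against 171 to 229 CPM in Cvi in CA, and at 177 to 238 CPM in Sha in O3 against 158 to 255 CPM in Sha in CA. The sum of 3 root markers was 58.8 to 66 CPM in Cvi in O3 against 61.5 to 99.9 CPM in Cvi in CA, and 9.95 to 57.6 CPM in Sha in O3 against 22.7 to 52.8 CPM in Sha in CA. Of these, PYK10 reached 98.9 CPM and NRT2.1 2.45 CPM in a library, while CASP1, which marks the root endodermis, reached 0.0907 CPM. The sum of 3 flower markers was higher in Sha, at 1.73 to 5.01 CPM in O3 and 3.63 to 7.92 CPM in CA. In Cvi it was 0.174 to 0.348 CPM in O3 and 0.0627 to 0.479 CPM in CA. Of the flower markers, AG reached 7.41 CPM in a library, AP1 1.03 CPM and AP3 0.482 CPM. In whole rosettes, fewer cells of a type and less RNA per cell cannot be told apart, and the part of these shifts in the results below was not tested. Sha replicate 2 stood apart from the other Sha replicates in both treatments, with a chi-square of counts per degree of freedom between 48.22 and 77.11 against them, where the other Sha pairs had 17.4 and 24.11. Some results that rest on Sha are therefore also given without both of its libraries. The others, among them the family totals and shares, are given with all libraries only.

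The first question was how each member responded to O3 within an accession. In Cvi, ATG8A, ATG8B, ATG8E and ATG8H were called higher in O3, 4 of 8 members, and 0 were called lower. Over all 28549 genes tested, 24.3% were called higher and 23.2% lower in Cvi. In Sha the same 4 members were higher and ATG8F was lower, against 17.9% of all genes called higher and 16.6% lower. With total counts in place of the scaling factors, 4 members were higher and 1 was lower in Cvi, and 5 were higher and 0 lower in Sha. A gene is called here when its change exceeded 1.2-fold at a Benjamini-Hochberg adjusted p of at most 0.05 over all genes (edgeR, glmTreat). The median log2 fold change of the 8 members was 0.57 in Cvi and 0.635 in Sha, where the median over all genes tested was 0 in both.

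ATG8H, with its glycine exposed at the end, had the largest change of the family in both accessions. It reached 33.4, 38.9 and 38 CPM in Cvi in O3 (replicates 1, 2 and 3), against 3.86, 4.72 and 3.83 CPM in Cvi in CA. In Sha it reached 16, 13.3 and 19 CPM in O3, against 3.54, 5.6 and 5.36 CPM in CA. All O3 libraries lay above all CA libraries in each accession, and every Cvi library in O3 lay above every Sha library in O3. The log2 fold change was 3.15 ± 0.195 in Cvi (SE, n = 3 against 3, 8.88-fold, edgeR adjusted p = 4.77e-46). In Sha it was 1.72 ± 0.206 (3.29-fold, edgeR adjusted p = 1.07e-12). Both calls held under all 23 alternatives tried, the lowest log2 fold change being 3.09 in Cvi and 1.56 in Sha. Without both Sha replicate 2 libraries the Sha value was 1.98.

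ATG8E was second in Cvi. It had 46.5, 52.8 and 47.7 CPM in Cvi in O3, against 13.1, 19.8 and 16.3 CPM in Cvi in CA, a log2 fold change of 1.58 ± 0.234 (edgeR adjusted p = 9.91e-09). In Sha it had 27.1, 27.7 and 47.9 CPM in O3, against 16.9, 19 and 22.4 CPM in CA, a log2 fold change of 0.82 ± 0.237 (edgeR adjusted p = 0.0088). The groups did not overlap in either accession, but in Sha the third replicate in O3 was far above the other O3 libraries. Without that library the log2 fold change in Sha was 0.58 and the call was lost (edgeR adjusted p = 0.0658), and without Sha in CA replicate 1 the edgeR adjusted p was 0.0503. Without both Sha replicate 2 libraries ATG8E was called in Sha (edgeR adjusted p = 0.00178).

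ATG8A had 55.1, 48.1 and 70.1 CPM in Cvi in O3, against 25.4, 35.4 and 24 CPM in Cvi in CA. In Sha it had 47.3, 81.4 and 68.2 CPM in O3, against 25.3, 51.5 and 36.6 CPM in CA. The Cvi groups were apart, whereas in Sha the lowest O3 library was below the highest CA library. The log2 fold change was 1.03 ± 0.276 in Cvi (edgeR adjusted p = 0.00206) and 0.80 ± 0.276 in Sha (edgeR adjusted p = 0.0289). In Sha each same-numbered pair of libraries rose, by 1.87, 1.58 and 1.87 times, but the call was lost with DESeq2 (adjusted p = 0.163), in a fit of the Sha libraries alone (edgeR adjusted p = 0.0684) and without Sha in CA replicate 1 or 3 or Sha in O3 replicate 2 or 3 (edgeR adjusted p between 0.0581 and 0.158). Without both Sha replicate 2 libraries it was 0.96 and called (edgeR adjusted p = 0.00269).

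ATG8B, the closest relative of ATG8A, rose in both accessions. It had 11.9, 12 and 15.6 CPM in Cvi in O3, against 7.78, 8.62 and 7.71 CPM in Cvi in CA, a log2 fold change of 0.72 ± 0.201 (edgeR adjusted p = 0.00765). In Sha it had 25.1, 37.3 and 29.4 CPM in O3, against 12.2, 17.2 and 13.7 CPM in CA, a log2 fold change of 1.09 ± 0.198 (edgeR adjusted p = 1.48e-05). No groups overlapped, and the Sha ratios of same-numbered libraries were 2.07, 2.16 and 2.15. The Cvi call was lost without Cvi in O3 replicate 3 (log2 fold change 0.57, edgeR adjusted p = 0.0613).

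ATG8F was the only member called lower in any response. It had 50.8, 70.4 and 53.4 CPM in Sha in O3, against 66.8, 112 and 91.3 CPM in Sha in CA, and these ranges overlapped. In Cvi it had 48.5, 51.6 and 52.9 CPM in O3, against 65.2, 92.2 and 68.4 CPM in CA, with no overlap. The log2 fold change was -0.63 ± 0.217 in Sha (edgeR adjusted p = 0.0392) and -0.56 ± 0.216 in Cvi, where it was not called (edgeR adjusted p = 0.0573). Both adjusted p-values were close to the threshold. The Sha call was lost in 12 of 23 alternatives, among them RLE size factors (edgeR adjusted p = 0.0569), DESeq2 (adjusted p = 0.285) and leaving out both Sha replicate 2 libraries (edgeR adjusted p = 0.0736), and ATG8F was called lower in Cvi in 10 of 23.

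ATG8D, ATG8G and ATG8I were called in neither accession. ATG8D had 13.7 to 16.9 CPM in Cvi in O3 against 11 to 11.9 CPM in Cvi in CA, and 44.9 to 53.6 CPM in Sha in O3 against 29.9 to 44.8 CPM in Sha in CA. These groups did not overlap, but its log2 fold changes of 0.42 ± 0.181 in Cvi and 0.47 ± 0.174 in Sha missed the threshold (edgeR adjusted p = 0.126 and 0.0964). With a replicate block within each accession, ATG8D was called higher in Sha (log2 fold change 0.49, edgeR adjusted p = 0.0435), and without both Sha replicate 2 libraries it was called higher there too (0.73, edgeR adjusted p = 0.00149). ATG8G had a log2 fold change of -0.33 ± 0.296 in Cvi and 0.04 ± 0.292 in Sha. ATG8I, the close relative of ATG8H, had 0.07 ± 0.246 in Cvi (95% interval -0.41 to 0.55) and 0.30 ± 0.25 in Sha (-0.19 to 0.79). Its O3 and CA libraries overlapped in both accessions, with 28.6 to 32.2 CPM in Cvi in O3 against 25.2 to 34.8 CPM in Cvi in CA, and 16.4 to 32.1 CPM in Sha in O3 against 16.1 to 24.1 CPM in Sha in CA.

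**Figure D1:**
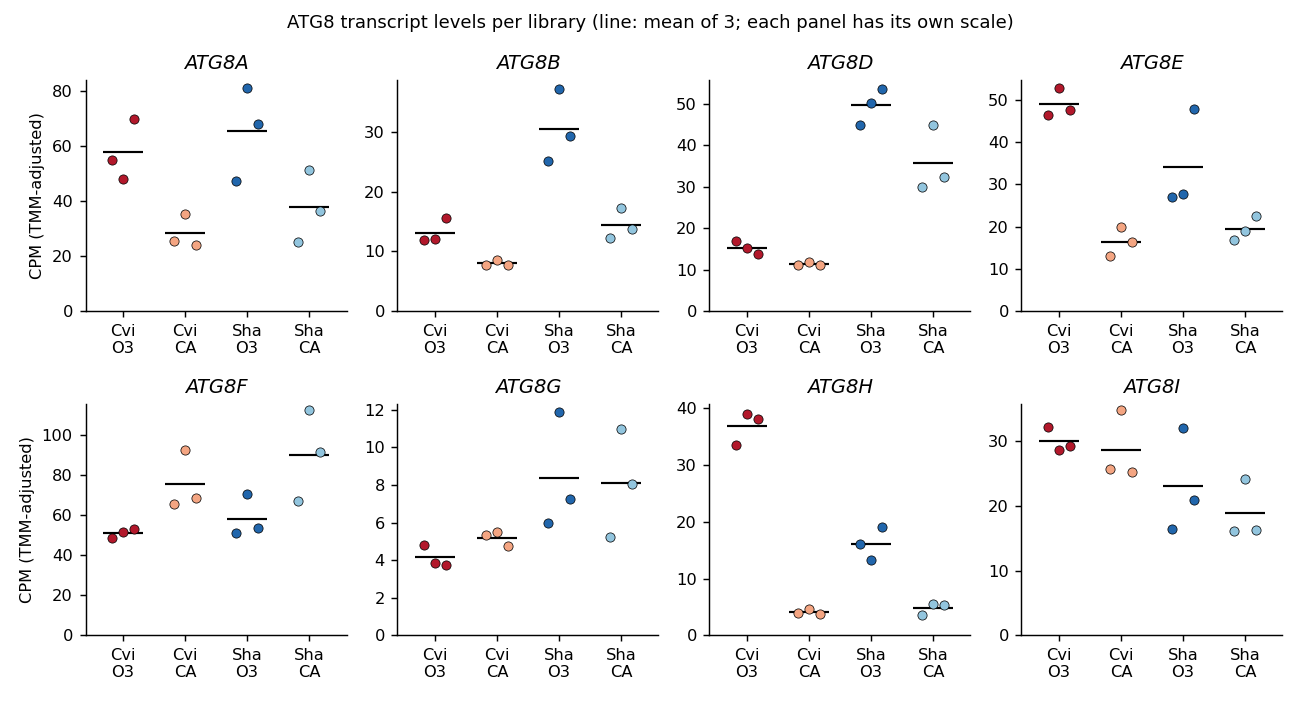
Level of each analysed ATG8 member in every library, in CPM on a linear axis from 0 with its own scale per panel, for Cvi in O3, Cvi in CA, Sha in O3 and Sha in CA. Points are libraries in the order of their replicate numbers and lines are means of 3. ATG8H lies between 33.4 and 38.9 CPM in Cvi in O3 and at or below 5.6 CPM in all CA libraries.

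The next question was whether the accessions differed in their response. ATG8H was the only member called, with a response larger in Cvi by 1.43 ± 0.284 on the log2 scale (95% interval 0.88 to 1.99, edgeR adjusted p = 0.000133), which is 1 of 8 members where 6.33% of all genes were called larger in this direction and 2.60% in the other. Its same-numbered ratios of O3 to CA were 8.65, 8.24 and 9.9 in Cvi and 4.53, 2.38 and 3.54 in Sha, which did not overlap. The call held in 21 of 22 alternatives and was lost where a log2 change of at least 1.2 was required. Without both Sha replicate 2 libraries the difference was 1.22 (edgeR adjusted p = 0.00076). The next largest difference was that of ATG8E, 0.76 ± 0.333, which was not called (edgeR adjusted p = 0.21). With a replicate block within each accession ATG8E was called (0.81, edgeR adjusted p = 0.012), and likewise without Sha in O3 replicate 3 (1.05, edgeR adjusted p = 0.0117). The differences of the other 6 members lay between -0.38 and 0.24, with 95% intervals that reached from -1.19 (ATG8G) to 1.00 (ATG8A), so differences of up to about that size could not be told from 0 here.

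Levels were then compared between accessions within each treatment. AtRTD2, the transcript set used for counting, comes from another accession, Col-0, so reads that differ from it may be lost in 1 accession, and the part of this in these differences was not tested. In CA, ATG8D and ATG8B were lower in Cvi than in Sha, 2 of 8 members where 9.28% of all genes were called lower and 8.84% higher. In O3, ATG8D, ATG8B and ATG8G were lower and ATG8H was higher in Cvi, so 3 of 8 were lower and 1 of 8 higher, where 13.9% of all genes were called lower and 18.5% higher.

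ATG8D showed the largest of these differences, and of nearly the same size in both treatments. Its log2 fold change of Cvi over Sha was -1.70 ± 0.176 in O3 (edgeR adjusted p = 1.28e-15) and -1.65 ± 0.178 in CA (edgeR adjusted p = 2.75e-14), and every Cvi library was below every Sha library. ATG8B was lower in Cvi by -1.21 ± 0.196 in O3 (edgeR adjusted p = 1.17e-06) and by -0.84 ± 0.203 in CA (edgeR adjusted p = 0.00429), again without overlap. ATG8H, in contrast, was 1.19 ± 0.185 higher in Cvi in O3 (edgeR adjusted p = 5.71e-07), while in CA its difference was -0.25 ± 0.215 and not called (edgeR adjusted p = 0.58). ATG8G had 4.82, 3.86 and 3.76 CPM in Cvi in O3, against 5.99, 11.9 and 7.24 CPM in Sha in O3, a log2 fold change of -1.02 ± 0.295 (edgeR adjusted p = 0.00726). That call was lost without Sha in O3 replicate 2 (-0.69, edgeR adjusted p = 0.0605) and with DESeq2 (adjusted p = 0.0807).

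ATG8I had 25.7, 34.8 and 25.2 CPM in Cvi in CA, against 16.1, 24.1 and 16.3 CPM in Sha in CA, which did not overlap. Its log2 fold change of 0.60 ± 0.249 was not called (edgeR adjusted p = 0.131). It was called higher in Cvi with the replicate block (0.61, edgeR adjusted p = 0.0486) and without both Sha replicate 2 libraries, in CA (0.80, edgeR adjusted p = 0.00184) and in O3 (0.65, edgeR adjusted p = 0.013). ATG8A, ATG8E and ATG8F were not called between the accessions in either treatment.

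**Figure D2:**
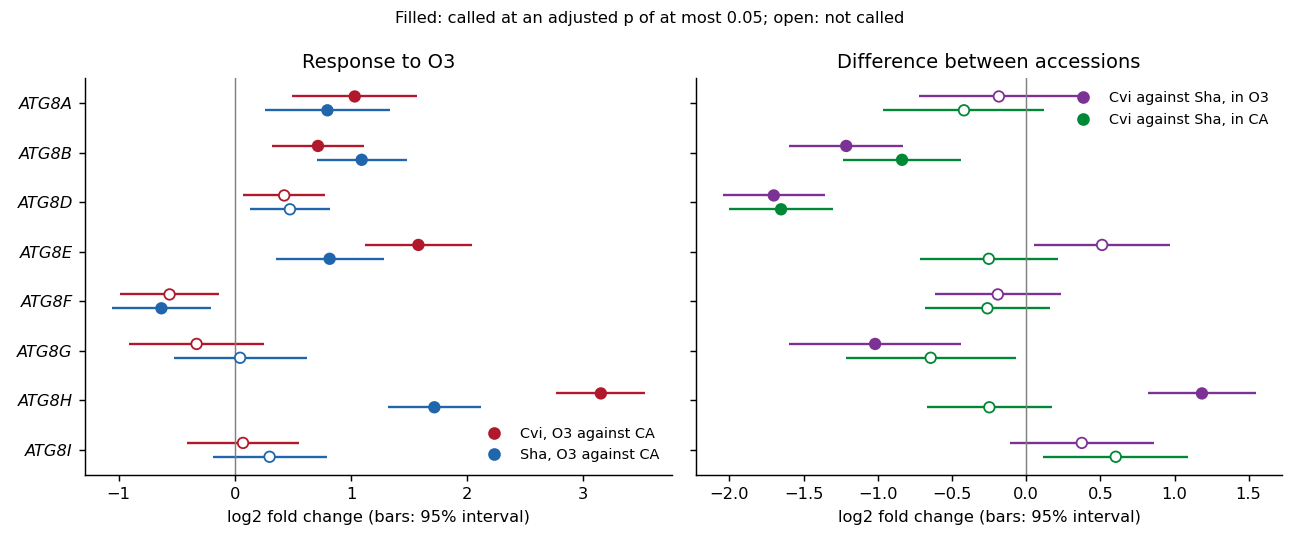
Log2 fold change of each analysed ATG8 member with its 95% interval, for O3 against CA in Cvi and in Sha (left) and for Cvi against Sha in O3 and in CA (right). Filled points were called at an adjusted p of at most 0.05. ATG8H stands at 3.15 in Cvi and 1.72 in Sha on the left, and ATG8D at -1.70 and -1.65 on the right.

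To compare members with one another, CPM was divided by the length of the longest annotated transcript, between 712 bases (ATG8H) and 1259 bases (ATG8F). The summed level of the 8 members was 284 ± 12.6 CPM per kb in Cvi in O3 and 172 ± 30 in Cvi in CA (SD, n = 3 each), with no overlap (275 to 299 against 153 to 207). In Sha it was 303 ± 47.7 CPM per kb in O3 and 227 ± 53.2 in CA, with ranges that overlapped (248 to 336 against 175 to 282). Per kb, ATG8F came first in CA, with 59.8 ± 11.7 in Cvi and 71.6 ± 18.1 in Sha, and it was the highest member within each CA library of both accessions. Across libraries its range was apart from that of the next member in Cvi but not in Sha.

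In O3 the order changed, and the places of some members in it depended on the division by length. In Cvi in O3, ATG8E (64.7 ± 4.39 CPM per kb) and ATG8A (64.6 ± 12.6) came first and did not differ beyond their spread, followed by ATG8H (51.6 ± 4.15), whose range overlapped that of ATG8A. ATG8F (40.5 ± 1.8), ATG8I (30.2 ± 1.94), ATG8D (18.5 ± 1.98), ATG8B (10.5 ± 1.71) and ATG8G (3.71 ± 0.521) followed in that order, each below the one before in all libraries. In Cvi in CA the order was ATG8F, ATG8A, ATG8I, ATG8E, ATG8D, ATG8B, ATG8H and ATG8G, and the ranges of ATG8A and ATG8I, of ATG8I and ATG8E and of ATG8B and ATG8H overlapped. In Sha in O3, ATG8A (73.4 ± 19.2), ATG8D (59.9 ± 5.27), ATG8F (46.2 ± 8.44) and ATG8E (45.2 ± 15.6) came first with each range overlapping the next, then ATG8B (24.4 ± 4.93), ATG8I (23.3 ± 8.16) and ATG8H (22.6 ± 3.96), which overlapped as well, and ATG8G (7.51 ± 2.81) came last. In Sha in CA, ATG8F was followed by ATG8D (43.2 ± 9.61), ATG8A (42.2 ± 14.7), ATG8E (25.7 ± 3.7), ATG8I (19 ± 4.58), ATG8B (11.4 ± 2.08), ATG8G (7.25 ± 2.56) and ATG8H (6.78 ± 1.58), and of these neighbours only ATG8I and ATG8B had ranges that did not overlap.

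As shares of the total per kb of the 8 analysed members, ATG8H made up 18.1% in Cvi in O3 against 3.39% in Cvi in CA, and 7.62% in Sha in O3 against 2.99% in Sha in CA. ATG8F made up 14.2% in Cvi in O3 against 34.6% in Cvi in CA, and 15.3% in Sha in O3 against 31.4% in Sha in CA. Shares of 1 total are tied to each other, so these values describe the makeup and are no separate tests. ATG8D, lower in Cvi, gave 6.52% of the total in Cvi in O3 and 20% in Sha in O3. The members that end in the glycine, ATG8H and ATG8I, together gave 28.8 ± 1.08% in Cvi in O3 and 20.1 ± 0.43% in Cvi in CA, and 15.2 ± 0.518% in Sha in O3 and 11.4 ± 0.685% in Sha in CA (SD, n = 3 each). Only the share of ATG8H rose. That of ATG8I was 10.7% in Cvi in O3 against 16.7% in Cvi in CA. In Sha it was 7.59% in O3 against 8.39% in CA, with ranges that overlapped.

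**Figure D3:**
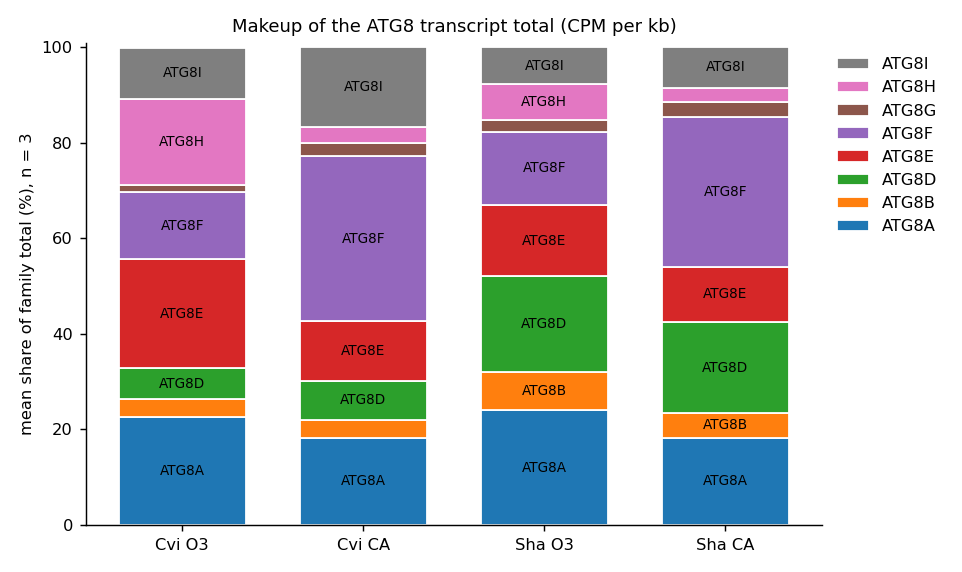
Mean share of each analysed ATG8 member in the family total, in percent of the summed CPM per kb (n = 3 per bar), for Cvi in O3, Cvi in CA, Sha in O3 and Sha in CA. The ATG8F segment is 14.2% in Cvi in O3 against 34.6% in Cvi in CA, and the ATG8H segment 18.1% against 3.39%.

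The genes that attach ATG8 to the membrane were examined next. Among the 4 genes of the ATG8 conjugation step, all 4 were higher in O3 in Cvi and 2 of 4 in Sha, where 24.3% and 17.9% of all genes were higher. ATG7 (AT5G45900), the shared E1-like enzyme, rose in Cvi by 1.42 ± 0.148 (log2) and in Sha by 1.00 ± 0.156 (edgeR adjusted p = 3.63e-15 and 1.19e-06). ATG3 (AT5G61500), the E2-like enzyme, rose by 0.70 ± 0.215 in Cvi and had 0.48 ± 0.216 in Sha (edgeR adjusted p = 0.0141 and 0.142). Of the pair of genes that RefSeq annotates as peptidase family C54, the protease family of ATG4, AT2G44140 rose by 0.80 in Cvi and 0.53 in Sha, and AT3G59950 rose by 0.54 in Cvi and was uncalled in Sha at 0.37 (edgeR adjusted p = 0.222). These 2 loci overlap opposite-strand genes by 1445 bases and by 160 and 203 bases, and ATG3 overlaps 1 by 40 bases, so their values are uncertain to that extent.

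The second conjugation system joins the ubiquitin-like ATG12 to ATG5, and the product helps ATG3 to place ATG8 on the membrane. Of its 5 genes, 2 were higher in Cvi and 1 in Sha, the Sha share being near the 17.9% of all genes (24.3% in Cvi). ATG12A (AT1G54210) rose by 0.71 ± 0.232 in Cvi and 0.81 ± 0.236 in Sha (edgeR adjusted p = 0.0177 and 0.00888). AT5G50230, annotated as a WD40 repeat protein, rose by 0.81 ± 0.163 in Cvi and had 0.27 ± 0.167 in Sha (edgeR adjusted p = 0.000259 and 0.418). ATG5 (-0.01 in Cvi, 0.21 in Sha), ATG10 (0.04, 0.39), the E2-like enzyme of this system, and ATG12B (0.16, 0.61) were called in neither accession. ATG5 and ATG10 overlap opposite-strand genes by 597 and 70 bases.

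Over a wider list of 56 other autophagy genes in 7 groups, 35 were higher and 1 lower in O3 in Cvi, and 17 were higher and 0 lower in Sha. Over all genes 24.3% were higher and 23.2% lower in Cvi, and 17.9% were higher and 16.6% lower in Sha. The median log2 fold change was 0.68 in Cvi and 0.39 in Sha. The count in Sha moved with the libraries, between 11 and 26 genes when single libraries were left out, 11 without Sha in CA replicate 1 and 26 without Sha in CA replicate 2, and was 28 without both Sha replicate 2 libraries. Against the same 24.3% and 17.9% of all genes called higher, the groups differed in their counts. Of the 12 cargo receptors and adaptors, 11 were higher in Cvi and 7 in Sha. Of the 8 genes of the ATG1-ATG13 kinase complex, which starts autophagosome formation, 3 were higher in Cvi and 1 in Sha, the Sha share being below that of all genes. Of the 11 upstream regulators, 4 were higher in Cvi and 0 in Sha. Among these 11, the kinase TOR, which holds autophagy back, was not called higher in either accession. TOR averaged 73.7 ± 12.8 CPM in Cvi in O3 and 78.7 ± 3.12 CPM in Cvi in CA. In Sha it averaged 88.2 ± 2.02 CPM in O3 and 89.7 ± 6.76 CPM in CA (SD, n = 3 each).

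The largest increase on the list in both accessions was in EXO70B1 (AT5G58430), an exocyst subunit with a role in autophagic transport to the vacuole. It averaged 299 ± 4.77 CPM in Cvi in O3 and 30.5 ± 1.31 CPM in Cvi in CA, and 129 ± 15.7 CPM in Sha in O3 and 37.2 ± 6.08 CPM in Sha in CA (SD, n = 3 each). Its log2 fold change was 3.30 ± 0.169 in Cvi and 1.79 ± 0.171 in Sha (edgeR adjusted p = 1.98e-62 and 1.5e-18). Next in Cvi were TGA9 (AT1G08320), a bZIP factor that binds the TGACG motif, with 2.98 ± 0.722, and AT1G77890 with 2.89 ± 0.154. AT1G77890 is on the list as ATG14A, in the group of the phosphatidylinositol 3-kinase complex. RefSeq annotates it as a DNA-directed RNA polymerase II protein. TGA9 was near the limit of detection, at 0.528 ± 0.0747 CPM in Cvi in O3 and 0.0677 ± 0.0604 CPM in Cvi in CA, and was not called in Sha (edgeR adjusted p = 0.0514). Next in Sha were ATG18A (AT3G62770) with 1.32 ± 0.155 and ATG18C (AT2G40810) with 1.29 ± 0.198, WD40 proteins of the group that binds phosphoinositides on the forming membrane. ATG18G (AT1G03380) of that group was the 1 gene called lower, by -1.11 ± 0.260 in Cvi (edgeR adjusted p = 0.000399), with -0.43 ± 0.260 in Sha (edgeR adjusted p = 0.279). It overlaps an opposite-strand gene by 341 bases.

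The O3 response of 4 of the 56 genes was called larger in Cvi than in Sha, and that of 0 was called smaller, a share near the 6.33% of all genes called larger (2.60% smaller) and so no result about the list. The difference was 1.87 ± 0.226 for AT1G77890 (ATG14A) and 1.5 ± 0.24 for EXO70B1 (edgeR adjusted p = 1.34e-11 and 1.29e-06). The other two were FYVE1 (AT1G20110), which acts in sorting at late endosomes, with 1.01 ± 0.207, and ATG11 (AT4G30790), an accessory protein of the kinase complex, with 0.83 ± 0.232 (edgeR adjusted p = 0.000856 and 0.0231). ATG11 overlaps an opposite-strand gene by 690 bases, and its call held in 11 of 22 alternatives. Between accessions, 9 genes of the list were higher and 2 lower in Cvi in O3, where 18.5% of all genes were higher and 13.9% lower. In CA, 1 was higher and 2 were lower in Cvi, where 8.84% of all genes were higher and 9.28% lower. The direction in O3 depended on the scaling, since with total counts 2 were higher and 6 lower in O3, and 0 higher and 5 lower in CA.

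**Figure D4:**
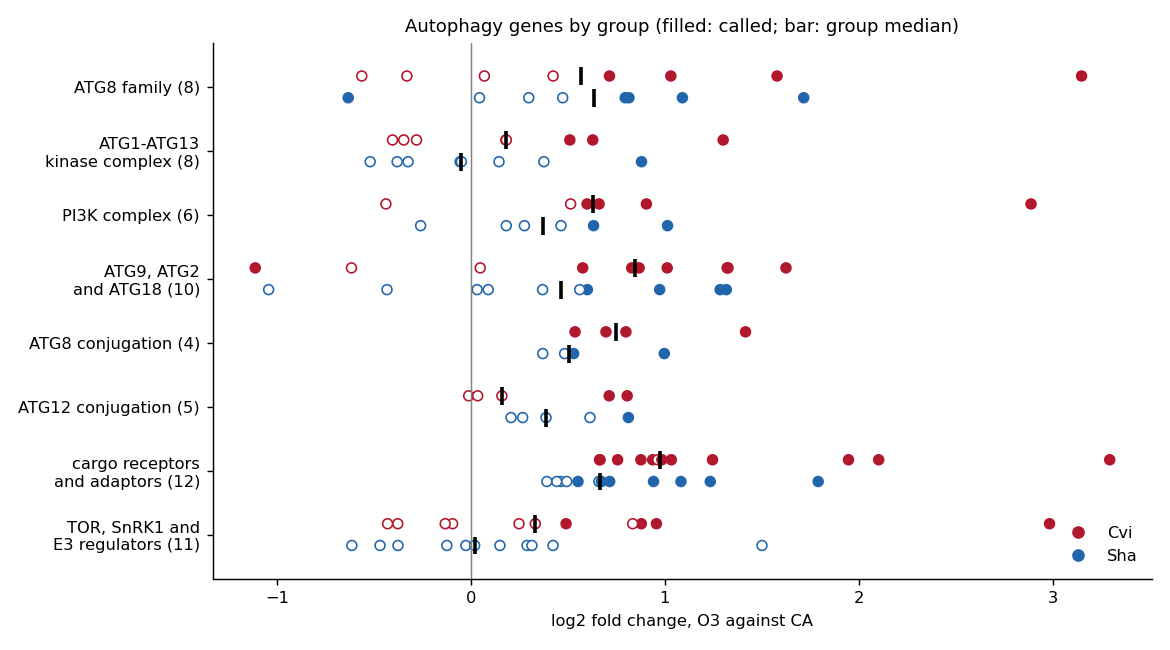
Log2 fold change of O3 against CA for the analysed ATG8 members and the 7 groups of other autophagy genes, with Cvi above Sha in each row and the number of genes in brackets. Filled points were called, open points were not, and bars are group medians. The cargo receptors and adaptors lie above 0 in both accessions, with 11 of 12 called in Cvi and 7 of 12 in Sha.

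The genes whose pattern over the 12 libraries was most like that of each member were sought by the root mean square (RMS) difference of log2 CPM after centring each gene, among the 19107 genes that averaged 1 CPM or more. The nearest member to ATG8H was ATG8E, at an RMS difference of 0.644, more distant than any other member from its nearest relative. The gene nearest to ATG8H was AT3G21295, annotated as a Tudor/PWWP/MBT superfamily protein, at 0.0964. ATG8A was nearest to ATI2 (AT4G00355, 0.14), which encodes an ATG8-interacting protein. Within the family ATG8F and ATG8G were nearest to each other (0.394), and so were ATG8A and ATG8B (0.419). The other genes nearest to a member were STY17 for ATG8F (0.103), NRPB4 for ATG8I (0.135), ADH1 for ATG8D (0.155), SLY1 for ATG8G (0.156), SYP81 for ATG8E (0.166) and CLT3 for ATG8B (0.181). These libraries share treatment, accession and, in Sha, replicate number, so the likeness is a description of 4 groups more than of 12 independent points.

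The 250 bases before the annotated start were searched on both strands for 5 short motifs, to describe what members that rose together share there. TGACG, the core bound by TGA factors, was found before 6 of 8 members and before 18.6% of 27443 protein-coding genes. It was present before 3 of the 4 members called higher in both accessions (ATG8A, ATG8E and ATG8H). Of the other 4, it was present before 3 (ATG8F, ATG8G and ATG8I), of which ATG8F was called lower in Sha. A link between motif and response was not tested, and 8 members are too few to decide it. TTGAC, the W-box core, was found before 2 of 8 members (ATG8E and ATG8I) and 44.9% of all genes, and CGCGT, the CAMTA core, before 1 of 8 (ATG8I) and 6.87%. CACGTG (6.49% of all genes) and GCCGCC (1.87%) were found before none of the 8. The windows of ATG8H, of ATG8B, which rose without a match, and of ATG8I, which was called in neither accession and held the most matches, are shown from RefSeq TAIR10.1, 5′ to 3′ toward the gene, with matches in capitals.
ATG8B chr4:2330591-2330840, minus strand: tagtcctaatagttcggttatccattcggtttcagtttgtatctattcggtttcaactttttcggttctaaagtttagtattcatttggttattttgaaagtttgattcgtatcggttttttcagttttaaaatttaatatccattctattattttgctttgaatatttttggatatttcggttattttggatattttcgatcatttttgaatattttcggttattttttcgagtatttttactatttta
ATG8H chr3:1956398-1956647, minus strand: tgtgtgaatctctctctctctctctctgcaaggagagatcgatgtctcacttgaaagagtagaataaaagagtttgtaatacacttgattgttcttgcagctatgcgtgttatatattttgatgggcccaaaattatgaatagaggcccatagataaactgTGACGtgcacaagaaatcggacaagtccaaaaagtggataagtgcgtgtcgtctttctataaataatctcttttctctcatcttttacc
ATG8I chr3:5275096-5275345, minus strand: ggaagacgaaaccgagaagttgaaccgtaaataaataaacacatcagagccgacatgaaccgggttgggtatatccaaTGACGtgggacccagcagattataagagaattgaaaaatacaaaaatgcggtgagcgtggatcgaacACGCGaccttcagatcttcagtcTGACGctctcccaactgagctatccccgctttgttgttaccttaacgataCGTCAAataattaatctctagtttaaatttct
In ATG8H the TGACG match begins 89 bases before the start. In ATG8I matches to TGACG begin 172, 82 and 32 bases before it, the last on the reverse strand and overlapping a reverse TTGAC match, and the reverse CGCGT match begins 105 bases before it. A match is a string of letters and was not tested as a binding site. Other genes within these windows were not looked for, so a match, also one of those before ATG8I, may belong to such a gene. The counts of matches and of members with a match include any such match.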

How the data were processed

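RNA-seq of 12 whole-rosette libraries was analysed. The authors trimmed reads with Trimmomatic 0.33 and assigned them to the AtRTD2 transcripts with kallisto, and the deposited values are estimated counts per locus, which the authors averaged over repeated kallisto runs and did not normalise. Of these, 69.42% were not whole and all were rounded. The sources name different RNA extraction reagents. A further 6 columns match no sample here and were left out. Loci without a count (5663 of 34212) were removed. The model was edgeR 4.0.16 in R 4.3.3, with TMM, 1 mean per group over 12 libraries, and a likelihood-ratio test against a 1.2-fold change (glmTreat). Scaling, removal of loci without counts and the adjusted p limit follow the study's methods. The study names glmLRT and a log2 limit of 1.2, not glmTreat, so a test with no minimum change and one with a log2 minimum of 1.2 were run as alternatives. Adjusted p-values are Benjamini-Hochberg over all 28549 genes. Standard errors come from the model information, and 95% intervals are normal. The script was tested on simulated data.

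Replicates were separate pools, and differed by more than counting noise. Replicate numbers are shared by all groups in the labels. Deviations from the group means of same-numbered libraries correlated at 0.385, 0.592 and 0.406 between Sha in O3 and Sha in CA and at 0.257, 0.413 and 0.223 between Cvi in CA and Sha in CA, which pairs those libraries by number. Between Cvi in O3 and Cvi in CA they correlated at 0.127, -0.098 and -0.043, and between Cvi in O3 and Sha in O3 at 0.026, -0.154 and -0.009, which does not. Within Sha, replicates 1 and 3 also correlated across numbers, at 0.252 and 0.238. Pairs of replicate 2 with another number had -0.454 to -0.409. How far the pairing in Sha rests on the outlying replicate 2 was not tested. Counts carry no molecular identifiers, so the detection limit covers counting error only.

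Gene positions, transcripts and sequences are RefSeq TAIR10.1 (33437 loci matched). Promoters were cut from the genome at the annotated gene starts. Alignments used Biopython 1.88 and blastn 2.17.0. The family, set by locus, the gene lists and the motifs were chosen for description with earlier results of these data known. Genes named outside the family are all conjugation genes, the 3 largest called increases and decreases per accession in the rest of the list, the 2 most positive and negative called differences of response and the nearest genes, and FYVE1 and ATG11 were added after their values were seen. Alternatives were other normalisations (RLE, total counts), tests (quasi-likelihood, DESeq2 1.42.0), minimum changes and filters, replicate blocks, 1 accession alone, each library left out and, chosen after seeing the data, both Sha replicate 2 libraries left out.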

Additional observations from a re-analysis of the deposited data

Results flagged for a closer look

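The O3 response of ATG8H was larger in Cvi than in Sha by 1.43 on the log2 scale, by the interaction term of the edgeR model. The same term called 4 of 56 genes of the wider autophagy list, a share near the 6.33% of all genes called larger in Cvi. Their differences were 1.87 for AT1G77890 (ATG14A), 1.5 for EXO70B1, 1.01 for FYVE1 and 0.83 for ATG11, each larger in Cvi. Over the 22 alternatives the difference ranged between 1.22 and 1.59 for ATG8H, 1.70 and 1.98 for AT1G77890, 1.29 and 1.62 for EXO70B1, 0.83 and 1.07 for FYVE1 and 0.62 and 0.95 for ATG11. Groups of 3 libraries are too small for a test of single outlying libraries.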

How the results depend on the processing

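The ATG8H response was called in both accessions under every alternative tried, and the direction of all called member values was the same under every alternative. Requiring a log2 change of at least 1.2 left 1 member called in Cvi, 1 in Sha, 0 for the difference of response, 1 between accessions in CA and 1 in O3. It left 6, 1, 1, 0 and 1 genes of the autophagy list, and 5324, 2955, 530, 1953 and 2748 of all genes. Members called in Sha numbered 3 with DESeq2 and 3 with the Sha libraries alone. A replicate block within each accession gave 2 members called for the difference of response, and 6 members in Sha, and the shared replicate block gave 5 in Cvi, 5 in Sha, 1 for the difference, 3 in CA and 4 in O3. Among members, these blocks changed no call other than those of ATG8D in Sha, ATG8F in Cvi, ATG8I in CA and the difference of ATG8E.

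The autophagy list had 28 genes called in Sha with no minimum change and 28 without both Sha replicate 2 libraries. Between accessions in CA, its 3 calls became 5 with total counts, 1 with quasi-likelihood, 0 with DESeq2 (3381 of all genes), 7 with no minimum change and 0 without both Sha replicate 2 libraries. In O3 its 11 calls became 18 with no minimum change. Leaving out single libraries gave 2 to 5 members in Sha, 1 to 2 for the difference of response, and 11 to 26 list genes in Sha and 0 to 5 in CA. The cause of these shifts was not tested.

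Values that changed sign were all uncalled. The difference of response of ATG8D was 0.0217 with RLE size factors and with DESeq2, and that of ATG8F -0.12 with total counts. Leaving out single libraries gave -0.0124 to 0.2378 for ATG8I in Cvi, -0.3323 to 0.3168 for ATG8G in Sha, -0.0465 to 0.5812 for ATG8I in Sha, -0.2427 to 0.0578 for ATG8D in the difference of response, -0.0488 to 0.452 for ATG8A in the difference of response, -0.1172 to 0.2439 for ATG8F in the difference of response and -0.459 to 0.0698 for ATG8I in the difference of response. Total counts moved the median of genes averaging 1 CPM or more by 0.11 in Sha, -0.17 for the difference, -0.13 in CA and -0.31 in O3, and ATG8H was called there too. Without division by length the share of ATG8H was 14.3% in Cvi in O3 and 2.35% in Cvi in CA. In Cvi in O3, ATG8A then had 22.4%, ATG8F 19.8% and ATG8E 19.1%, so ATG8F lay above ATG8E and ATG8H. In Sha in O3, ATG8F then had 20.4% and ATG8D 17.5%, the reverse of their order per kb. With a minimum mean of 10 CPM the nearest gene outside the family was the same for all 8 members. Low counts limit ATG8G and, in Sha in CA, ATG8H.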
